A study of Mus musculus with 4 samples.

Results

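The 10 genes described here encode somatic and germ cell forms of glycolytic and pyruvate-handling enzymes: the lactate dehydrogenases Ldha, Ldhb and Ldhc, the phosphoglycerate kinases Pgk1 and Pgk2, the glyceraldehyde-3-phosphate dehydrogenases Gapdh and Gapdhs, the pyruvate dehydrogenase E1 alpha subunits Pdha1 and Pdha2, and hexokinase 1 (Hk1). They were chosen by symbol from the 55357 genes of the count tables, and each symbol had 1 row. The measurements were single-nucleus RNA-seq libraries of whole mouse testis, 4 in all, taken at 8 weeks of age. The 2 WT libraries and the 2 Dhx37-/- libraries were labelled as biological replicates. Dhx37-/- mice were Dhx37 flox/flox animals that carried Amh-Cre, on a C57BL/6 base, so that exon 2 was removed in Sertoli cells, where the Amh promoter drives the recombinase. By this design germ cells and Leydig cells keep the gene, which was not tested here. Dhx37 encodes an RNA helicase needed for ribosome production.

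Glycolysis splits glucose to pyruvate. Hexokinase starts it, GAPDH and phosphoglycerate kinase carry its middle steps, lactate dehydrogenase interconverts pyruvate and lactate, and pyruvate dehydrogenase passes pyruvate into mitochondrial respiration. In the testis, Sertoli cells are known to release lactate that spermatocytes and spermatids take up, and sperm rely on glycolysis for movement. Several of these enzymes exist as a widely used form and a form made in meiotic and later germ cells. Pgk1 and Pdha1 lie on the X chromosome, which is silenced in male meiosis, and Pgk2 and Pdha2 are intronless copies of them on autosomes. Ldhc arose beside Ldha on the same chromosome. Gapdhs encodes the GAPDH of the sperm tail. Ldhb encodes the heart-type subunit. Hk1 also has germ cell transcripts, which counts per gene could not separate from the others.

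Promoters of 5 of the genes are shown because the germ and somatic forms are separate genes with their own start sites. RefSeq promoters (GRCm38.p6, 250 bases before to 50 after each start) were found for all 10 genes. The windows below are 60 bases long, read 5′ to 3′ on the strand of the gene, with capitals for matches to the CRE-type letters TGACGTCA or TGACG, to TATAAA or to CCAAT, searched on both strands. TGACG lies within TGACGTCA, so that each match to the longer motif also holds the shorter one.
Ldhc, chr7:46861181-46861240, plus strand, bases -82 to -23 from the start: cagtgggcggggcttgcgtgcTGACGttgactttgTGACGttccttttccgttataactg
Ldha, chr7:46845744-46845803, plus strand, bases -60 to -1: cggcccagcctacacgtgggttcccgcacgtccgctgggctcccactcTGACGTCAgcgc
Pgk2, chr17:40208647-40208706, minus strand, bases -97 to -38: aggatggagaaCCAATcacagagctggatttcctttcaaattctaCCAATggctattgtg
Pgk1, chrX:106187014-106187073, plus strand, bases -86 to -27: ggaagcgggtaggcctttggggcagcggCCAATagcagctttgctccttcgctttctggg
Pdha2, chr3:141212368-141212427, minus strand, bases -72 to -13: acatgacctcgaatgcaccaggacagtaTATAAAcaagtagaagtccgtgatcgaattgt
The Ldhc window held TGACG at 2 places and the Ldha window held the full TGACGTCA. Both phosphoglycerate kinase genes had CCAAT. Over the whole promoters TGACG was also found in Gapdhs and Pdha1, so that 4 of the 10 genes held it, and CCAAT also in Ldhb, so that 3 did. Of 32851 mouse promoters of the same length, 20.8% held TGACG, 1.79% held TGACGTCA, 37.4% held CCAAT and 13.6% held TATAAA. These are shares of promoters, while the counts above are of genes. Ldha, Ldhc, Gapdhs and Hk1 had 2 promoters each, so that the counts and shares are not like measures. A match is a run of letters and was not tested as a binding site.

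Nuclei were rebuilt from the raw UMI tables, and 9910, 8295, 8807 and 10022 were kept in WT replicates 1 and 2 and Dhx37-/- replicates 1 and 2, out of libraries of 51797891 to 75611263 UMIs. A UMI is a count of 1 captured RNA molecule. Marker gates, which used none of the 10 genes, placed 13426 of the 37034 nuclei in 12 classes. Each class carried between 1 and 5 of its own markers and none of another list among its 10 leading genes. The gates select on these markers, and some of them were leading genes in earlier results of these data. This count is therefore not a separate check of what the classes are. Free RNA, meaning RNA outside nuclei, was read from the barcodes ranked 45000 to 90000 by UMIs, which held 9 to 384 UMIs each in WT replicate 1 and fewer at the top end elsewhere. Pairs of libraries shared 19 to 29 barcodes of kept nuclei. The Sertoli-like class held 64, 17, 158 and 237 nuclei in the order above, so that WT replicate 2 was its thinnest sum. Dhx37 itself had 4, 3, 12 and 14 UMIs there, and since only exon 2 was deleted and tags were read near the 3′ end, these counts do not check the deletion. Levels below are in CPM, UMIs of the gene scaled by all UMIs of the class in that library. CPM levels are compared only for 1 gene between classes, since capture near the 3′ end does not give levels per length between genes. The germ form shares further below do set UMIs of different genes side by side, with the limit stated there.

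Ldhc, the testis lactate dehydrogenase subunit, was the most counted of the 10 genes, with 37768 to 69585 UMIs per library in kept nuclei. In WT replicate 1, WT replicate 2, Dhx37-/- replicate 1 and Dhx37-/- replicate 2, its level was 1399, 1947, 2064 and 1877 CPM in spermatocyte-like nuclei. It was 1045, 1519, 1599 and 1521 CPM in round spermatid-like nuclei and 1164, 1617, 1839 and 1606 CPM in elongating spermatid-like nuclei. WT replicate 1 was the lowest of the libraries in all 3 classes, and the ranges of these classes overlapped. In Sertoli-like nuclei the level was 279, 368, 626 and 420 CPM, below every library of the 3 germ classes.

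Ldhb ran the other way. Sertoli-like nuclei had 193, 159, 200 and 194 CPM, above every library of every other class. Leydig-like nuclei followed with 48.7, 59.5, 92.7 and 89.4 CPM, while round spermatid-like nuclei had 3.77, 3.16, 9.76 and 8.57 CPM. The heart-type subunit was thus a Sertoli-rich transcript in these libraries, with Leydig-like, fibroblast-like and peritubular myoid-like nuclei next and with overlapping ranges. Ldha, the muscle-type subunit, was at 160, 108, 130 and 106 CPM in spermatocyte-like nuclei and at 29.98, 25.1, 33.4 and 28.8 CPM in Sertoli-like nuclei, the class with its lowest mean.

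Gapdhs was at 281, 224, 322 and 364 CPM in round spermatid-like nuclei and at 354, 324, 483 and 510 CPM in elongating spermatid-like nuclei. Spermatocyte-like nuclei had 124, 34.2, 104 and 95.6 CPM, below every library of both spermatid classes. Its somatic relative Gapdh was sparse in both spermatid-like classes, at 5.10, 3.72, 7.16 and 7.85 CPM in the round and 6.40, 9.05, 13.3 and 15.8 CPM in the elongating spermatid-like class. Among the classes with at least 10 nuclei in every library, fibroblast-like nuclei had the highest mean of Gapdh, at 24.7, 37.4, 45.6 and 53.0 CPM. Spermatogonia-like nuclei had 16.3, 21.9, 61.5 and 44.7 CPM from 1 to 20 UMIs, which overlapped Leydig-like nuclei, and early meiotic prophase-like nuclei had 14.6 to 30.01 CPM. T cell-like sums, of 4 to 30 nuclei, were at 40.4 to 85.7 CPM from 1 to 6 UMIs. Gapdh, Pgk1, Ldha and Ldhb have processed copies elsewhere in the genome, so that their counts carry that uncertainty.

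Pgk2 was at 71.0, 66.1, 76.5 and 75.5 CPM in round spermatid-like nuclei and at 56.2, 52.1, 75.0 and 76.5 CPM in elongating ones. In Sertoli-like nuclei it was at 11.2, 25.1, 24.6 and 24.5 CPM, from 3 to 51 UMIs a library. Its X-linked parent Pgk1 was low in every class, with 214 to 388 UMIs per library over all kept nuclei. Round spermatid-like nuclei had 5.55, 5.95, 10.1 and 6.85 CPM of Pgk1, which overlapped Leydig-like nuclei at 11.5, 30.9, 15.1 and 9.83 CPM only through the third library's 10.1 CPM. No class stood clear of its neighbour in the order of Pgk1 levels.

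Pdha2 was at 63.5, 58.7, 101 and 103 CPM in spermatocyte-like nuclei, at 59.7, 60.7, 68.7 and 71.2 CPM in round and at 77.7, 104, 108 and 121 CPM in elongating spermatid-like nuclei. Its X-linked parent Pdha1 had 2, 0, 0 and 0 UMIs in spermatocyte-like nuclei, and 3 counts, the limit that a count of 0 allows, correspond to 14.7, 4.52 and 4.28 CPM in the 3 libraries at 0. Round spermatid-like nuclei held 3, 3, 4 and 6 UMIs of Pdha1, at 0.558 to 1.30 CPM. Fibroblast-like nuclei had 30.5, 29.0, 34.9 and 32.6 CPM, the highest mean among the classes with at least 10 nuclei in every library, and Leydig-like nuclei had 14.2, 9.51, 21.5 and 27.6 CPM. T cell-like sums were at 39.5 to 85.7 CPM of Pdha1, from 1 to 3 UMIs.

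Hk1 peaked in 1 class. Round spermatid-like nuclei had 625, 444, 469 and 509 CPM, above every library of every other class and above free RNA at 225 to 316 CPM. Elongating spermatid-like nuclei had 314, 195, 189 and 204 CPM, and spermatocyte-like nuclei had 217, 122, 87.4 and 81.3 CPM. The lowest means were in Sertoli-like nuclei at 95.6, 75.3, 55.4 and 40.8 CPM and in Leydig-like nuclei, where the ranges overlapped. WT replicate 1 was the highest library in each of these classes.

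**Figure D1:**
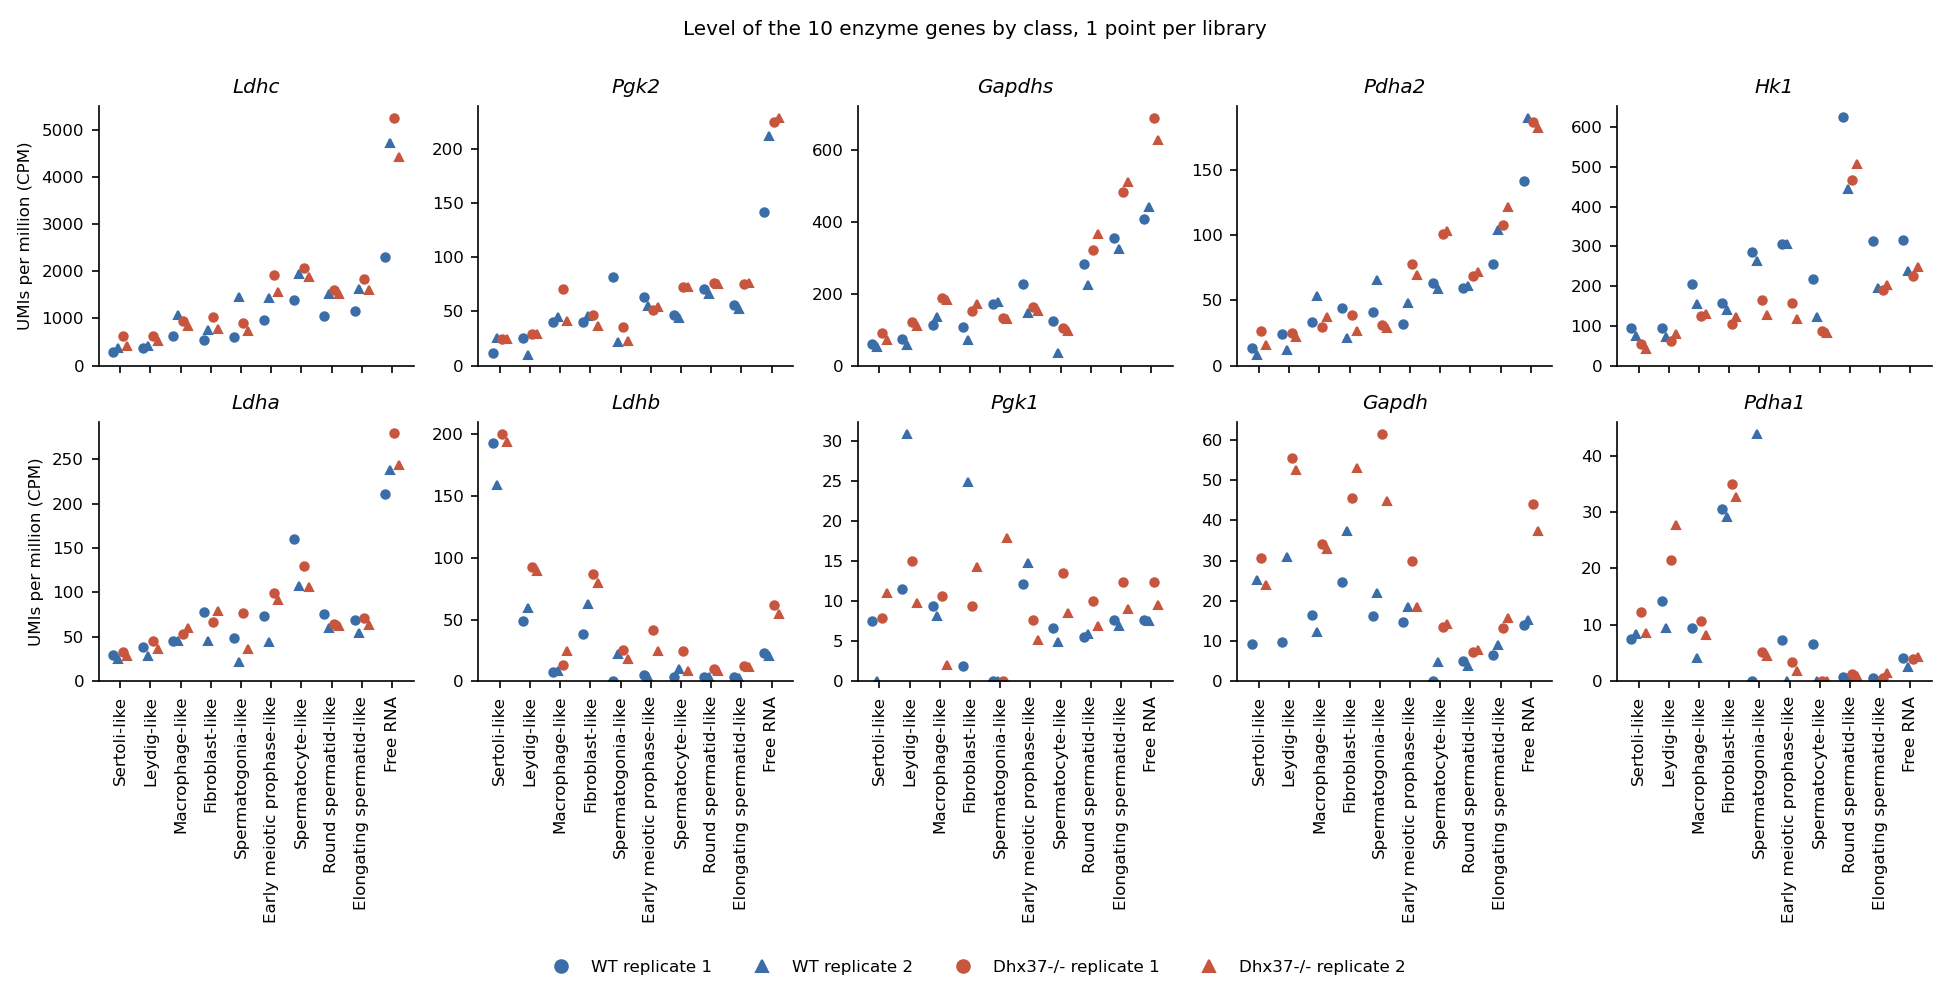
Level of each of the 10 genes (CPM on a linear axis from 0) in 9 classes and in free RNA, 1 point per library, with WT libraries in blue and Dhx37-/- libraries in red. Ldhb stands highest in Sertoli-like nuclei (159 to 200 CPM) and Hk1 in round spermatid-like nuclei (444 to 625 CPM), while Ldhc is highest in free RNA (2308 to 5259 CPM).

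A germ form share was taken as the UMIs of the germ form over all UMIs of its family (Ldhc of the 3 lactate dehydrogenase genes, and Pgk2, Gapdhs and Pdha2 each of a pair). Capture may differ between the genes of a family, and whether introns were counted is not known, while Pgk2 and Pdha2 are intronless. A share is therefore one of counted UMIs, is compared between classes and libraries, and does not give a ratio of transcripts. In round spermatid-like nuclei Ldhc made up 92.9, 96.0, 95.6 and 95.6% of its family, with 5071 to 11147 UMIs behind each value and exact Clopper-Pearson 95% intervals that ran from 92.2 to 96.4% over the 4 libraries. Pdha2 made up 98.9, 99.1, 98.1 and 98.8%, Gapdhs 98.2, 98.4, 97.8 and 97.9%, and Pgk2 92.8, 91.7, 88.3 and 91.7%. These intervals and limits cover counting error only. The germ forms were thus nearly all that was counted of each family in round spermatid-like nuclei. A high counted Ldhc share was not particular to that class. It ran from 90.9 to 95.3% in macrophage-like, 89.8 to 97.1% in spermatogonia-like and 81.2 to 96.4% in endothelial-like nuclei. Macrophage-like shares of Gapdhs (84.6 to 91.7%) and Pdha2 (73.7 to 92.9%) lay below those of round spermatid-like nuclei, and that of Pgk2 (81.0 to 95.2%) overlapped.

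In Sertoli-like nuclei Ldhc was 55.6, 66.7, 72.8 and 65.4% of its family, with intervals from 49.4 to 61.6% in WT replicate 1 and from 54.0 to 77.8% in WT replicate 2. Ldhb made up 38.4, 28.8, 23.3 and 30.1% of the family there. Pdha2 was 63.6, 50.0, 68.2 and 64.0% of its pair, but from 11, 2, 44 and 50 UMIs. Gapdhs was 86.5, 66.7, 74.8 and 75.0% of its pair, and Pgk2 60, 100, 75.7 and 68.9% of its pair from only 3 UMIs in WT replicate 2. The mean of each of the 4 shares lay below that of round spermatid-like nuclei, and each mean was still above 50% of the family.

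Leydig-like nuclei gave Ldhc shares of 81.2, 82.5, 81.8 and 80.4%. Pdha2 shares there were 62.8, 55.6, 53.5 and 44.3%, the lowest in the last library, with 9 to 106 UMIs behind each. Free RNA itself held Ldhc at 90.8, 94.8, 93.9 and 93.7% and Pdha2 at 97.2, 98.6, 97.9 and 97.7% of their families. For Ldhc and Pdha2 the shares in free RNA were close to those of the spermatid classes, which hold most of the nuclei with a class. The Pgk2 share was higher in free RNA (94.8 to 96.6%) than in round and elongating spermatid-like nuclei (88.3 to 92.8% and 85.9 to 89.5%). The Gapdhs share was lower in free RNA (94.0 to 96.7%) than in those classes (97.8 to 98.4% and 97.0 to 98.2%).

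**Figure D2:**
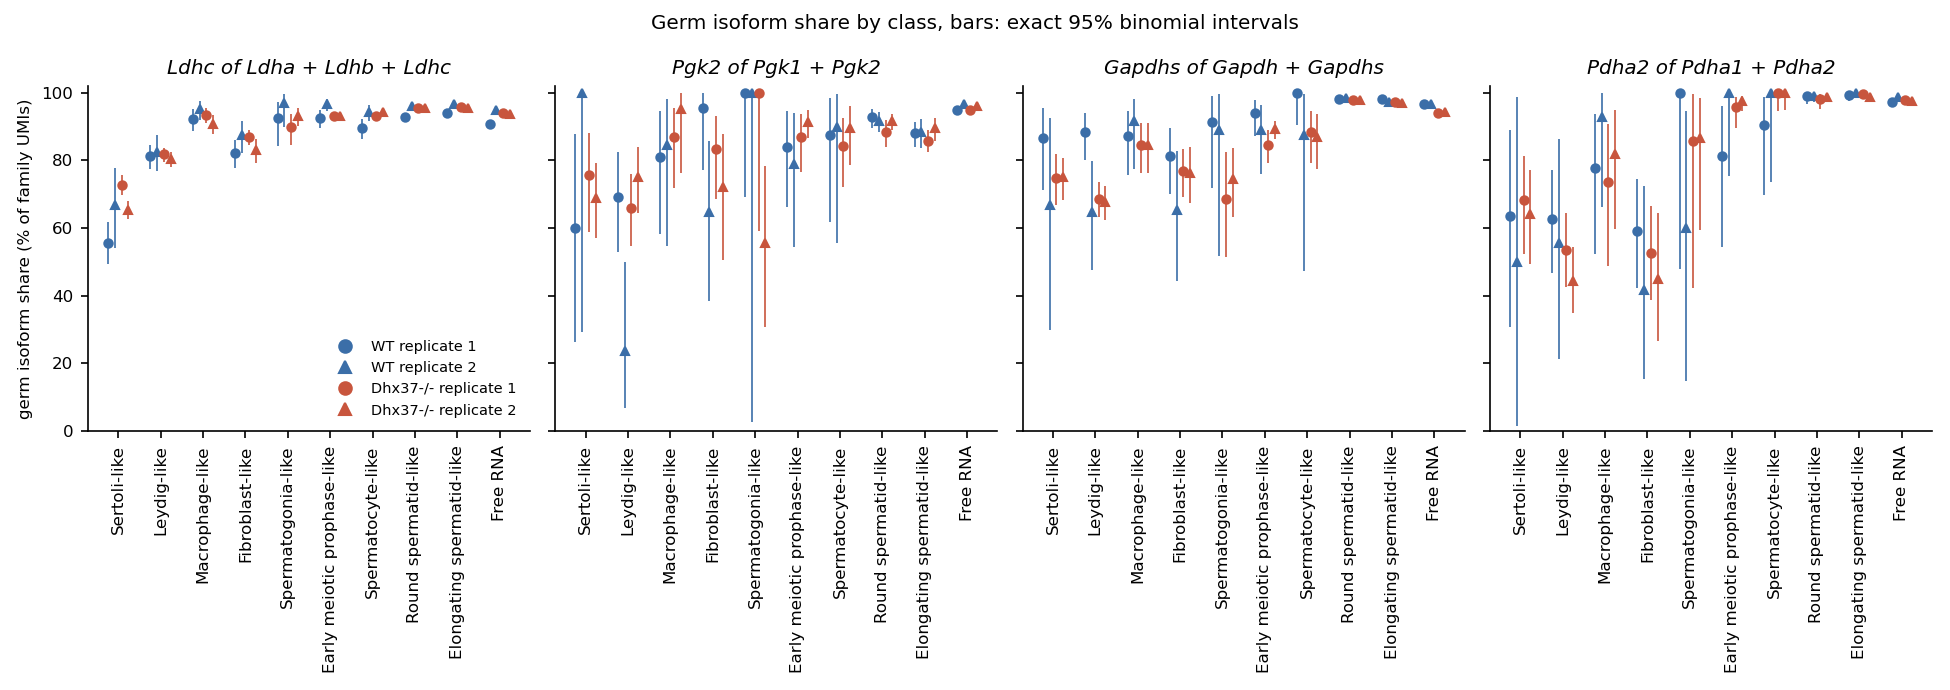
Germ form share (percent of family UMIs) in 9 classes and in free RNA for the 4 families, 1 point per library with its exact 95% binomial interval. Round and elongating spermatid-like nuclei sit above 85% in every family, and Sertoli-like and Leydig-like nuclei range lower, with wide intervals where few UMIs were counted.

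Free RNA carried the germ forms at high levels. Ldhc had 2308, 4716, 5259 and 4425 CPM in free RNA against 1084, 1620, 1796 and 1539 CPM in all kept nuclei, with WT replicate 1 the lowest in both. That was 2.13, 2.91, 2.93 and 2.88 times the level in nuclei. Pgk2 had 142, 213, 226 and 229 CPM in free RNA, or 2.27, 3.53, 2.99 and 3.27 times its level in nuclei. Ldha was enriched outside nuclei by 2.63, 3.91, 3.38 and 3.38 times, and Hk1 was not, at 0.757, 0.791, 0.885 and 0.843 times.

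In the fit of kept nuclei against free RNA of the same libraries, 9 of the 10 genes were lower in nuclei and none was higher, beside 31.8% of 26687 genes lower and 37.4% higher (edgeR quasi-likelihood test, Benjamini-Hochberg adjusted p under 0.05). The median log2 difference over all genes was 0.15. Ldha differed by -2.0 (SE 0.18, adjusted p = 8.5e-07), Pgk2 by -1.85 (SE 0.18, adjusted p = 1.3e-06) and Ldhc by -1.71 (SE 0.28, adjusted p = 9.4e-05). Ldhb (-1.55), Pdha2 (-1.52), Gapdh (-1.45), Gapdhs (-1.16), Pdha1 (-0.87) and Pgk1 (-0.44) were also lower, and the Hk1 value was 0.01 (SE 0.18, adjusted p = 0.95). With free RNA read from ranks 90000 to 180000, the Pgk1 value turned to 0.016 (adjusted p = 0.99) and the call of Pdha1 was lost (adjusted p = 0.66), and with library totals alone as the scaling both calls were lost (adjusted p = 0.435 and 0.0758). The Pgk1 call was also lost without either Dhx37-/- library (adjusted p = 0.161 and 0.139) and with no filter on low counts (0.0925). Of the other lists, 11 of 26 glycolysis genes were lower in nuclei and 4 higher, among them Pgam2 (-2.14) and Tpi1 (-1.79) lower and Pfkfb4 (1.14) higher. Of pyruvate entry genes 8 of 12 were lower and 0 higher. Of other X-linked parents and autosomal copies 11 of 14 were lower and 0 higher, and of transporters of glucose and lactate 4 of 8 lower and 2 higher.

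Free RNA also enters droplets that hold a nucleus. Its share of the UMIs of each Sertoli-like and Leydig-like sum was estimated from the spermatid transcripts Prm1, Prm2, Tnp1 and Tnp2, at 10.2, 6.48, 8.60 and 7.08% in Sertoli-like and 18.4, 8.31, 10.7 and 10.4% in Leydig-like nuclei. At those shares it would supply 72.2 to 84.1% of the Ldhc count of Sertoli-like nuclei and 88.9 to 113% of that of Leydig-like nuclei. For Pdha2 the range was 60.9 to 147% in Sertoli-like nuclei and for Gapdhs 57.0 to 68.9%. Of the somatic forms, Ldha had 59.8 to 72.0% of its Sertoli-like count covered. The values of 3 others were small, with Ldhb at 0.836 to 2.65%, Pdha1 at 2.01 to 5.62% and Gapdh at 3.92 to 15.2%.

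That estimate was then subtracted, and counts that fell below 0 were set to 0. A share of 0 thus marks a germ form count that the estimate met or exceeded, and the means include such values. After subtraction the Ldhc share in Sertoli-like nuclei became 18.2, 27.2, 46.0 and 34.6% and the Gapdhs share 70.1, 47.3, 54.4 and 56.3%. Their means were 31.5 and 57.0% in place of 65.1 and 75.7%. The Pgk2 share there became 0, 100, 43.3 and 44.2%, and its mean of 46.9% was 29.2% without WT replicate 2, which held 3 UMIs. The Pdha2 share became 0, 0, 46.3 and 22.7%, and its mean of 17.3% was 7.58% without Dhx37-/- replicate 1. In Leydig-like nuclei the Ldhc share became 0, 26.9, 35.6 and 37.6% and the Gapdhs share 0, 40.8, 48.5 and 47.6%, with means of 25% and 34.2%. Both WT libraries were at 0 for Pgk2 and Pdha2 there. The Dhx37-/- libraries had Pgk2 at 26.1 and 39.3% and Pdha2 at 18.2 and 10.3%, so that the means of 16.4 and 7.14% over 4 libraries were 8.71% without Dhx37-/- replicate 2 and 3.44% without Dhx37-/- replicate 1. In spermatocyte-like nuclei the estimate covered 32.3 to 53.5% of the Ldhc count, and the subtracted share stayed at 87.6 to 94.6%. For Gapdhs in that class the estimate covered 83.9 to 198% of the count. The subtracted Gapdhs share was 0, 67.8 and 9.82% in WT replicate 2 and the Dhx37-/- libraries, from 87.5, 88.5 and 87.0% as counted, and WT replicate 1 had no count left in the pair. The estimate was not applied to the spermatid-like classes, which make the 4 transcripts it rests on. What made up the remaining counts in Sertoli-like nuclei was not tested.

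**Figure D3:**
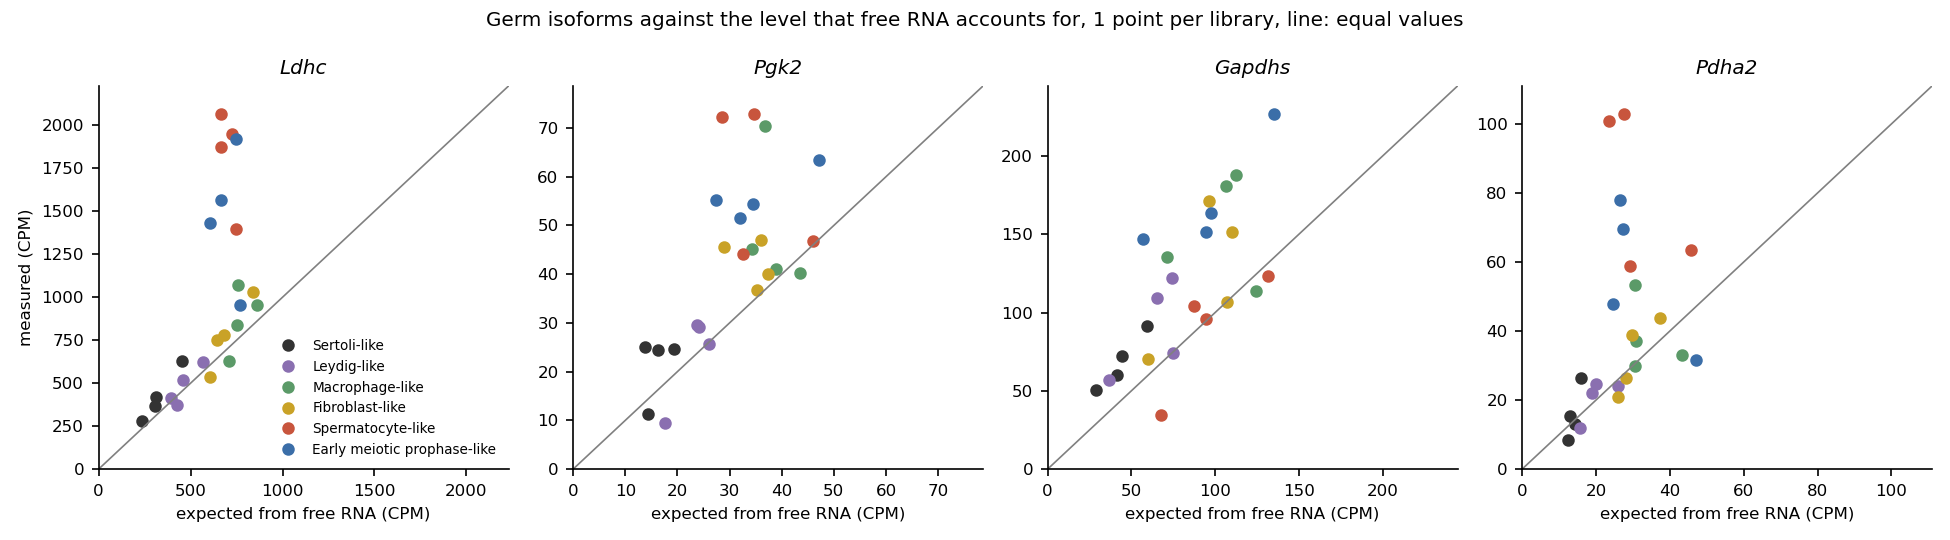
Measured level of each germ form (CPM, vertical axis) against the level that free RNA would supply (CPM, horizontal axis) in 6 classes, 1 point per library, with a line of equal values. Leydig-like points lie near the line for Ldhc (free RNA supplies 88.9 to 113% of the count), and spermatocyte-like points lie well above it (32.3 to 53.5%).

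The step between cell types was tested in 1 fit over the classes with at least 10 nuclei in every library, with library as a term. The first contrast set the mean of the spermatocyte-like, round and elongating spermatid-like sums against the mean of the Sertoli-like, Leydig-like and macrophage-like sums. Of the 9 genes tested, 6 were higher in the germ classes and 3 lower, beside 45.3% of 16198 genes higher and 36.6% lower and a median log2 difference of 0.27. The higher genes were Pdha2 at 2.05 (SE 0.15, adjusted p = 4.1e-18), Ldhc at 1.78 (SE 0.11, adjusted p = 9.8e-21), Hk1 at 1.66, Gapdhs at 1.46, Pgk2 at 1.43 and Ldha at 1.36. The lower genes were Pdha1 at -3.36 (SE 0.37, adjusted p = 4.8e-12), Ldhb at -2.54 (SE 0.23, adjusted p = 1.2e-14) and Gapdh at -1.33 (SE 0.19, adjusted p = 6.8e-09). Pgk1 did not pass the filter on low counts and was not tested. All 4 germ forms were among the higher genes, and of the somatic forms Ldha was the exception to the lower level. The contrast averages classes. In spermatocyte-like nuclei Ldhc and Pdha2 were above every somatic library in it. Gapdhs there (34.2 to 124 CPM) and Pgk2 (44.0 to 72.8 CPM) overlapped macrophage-like nuclei (114 to 188 and 40.2 to 70.3 CPM). Endothelial-like nuclei, which were not in the contrast, reached 1533 CPM of Ldhc and 427 CPM of Gapdhs.

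These differences were computed on counts that hold the free RNA described above, and each moved in size with the libraries used. Leaving out 1 library at a time gave -4.69 to -2.71 for Pdha1, 1.57 to 2.18 for Ldhc and 1.75 to 2.44 for Pdha2, and no direction or call of the 9 genes changed.

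Between early meiotic prophase-like nuclei and spermatogonia-like nuclei, 3 of 9 genes were higher and none lower, beside 10.9% of genes higher and 11.5% lower and a median of 0.05. Ldhc had 957, 1432, 1921 and 1566 CPM in the early meiotic class against 596, 1447, 902 and 736 CPM in spermatogonia-like nuclei, so that only WT replicate 2 did not show the increase. At the free RNA share estimated as above, free RNA would supply 65.7 to 121% of the Ldhc count of spermatogonia-like and 38.8 to 80.3% of that of early meiotic prophase-like nuclei, and 41.8 to 219% and 39.9 to 96.0% of the Ldha counts. Its log2 difference was 0.91 (SE 0.20, adjusted p = 0.00052 by edgeR). Ldha was at 0.92 (SE 0.29, adjusted p = 0.015) and Pdha2 at 0.96 (SE 0.35, adjusted p = 0.037). The call of Ldha was lost with DESeq2-type size factors (adjusted p = 0.0556) and without Dhx37-/- replicate 2 (0.355), and that of Pdha2 was lost without either Dhx37-/- library (0.260 and 0.422) and under 4 other alternatives (0.0602 to 0.098), whereas Ldhc stayed past the threshold under each alternative run. With those size factors, 32.2% of the calls over all genes were higher rather than 48.7%, and with library totals alone 36.8%.

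Between spermatocyte-like and early meiotic prophase-like nuclei, 3 genes were higher and 2 lower, beside 22.3% of genes higher and 23.3% lower and a median of -0.11. Ldha at 0.78 (SE 0.22, adjusted p = 0.0026), Pdha2 at 0.68 (SE 0.25, adjusted p = 0.022) and Ldhc at 0.47 (SE 0.19, adjusted p = 0.041) were higher, but the Ldhc call was lost when any 1 library was left out (adjusted p 0.0584 to 0.205). The Ldha call was lost without WT replicate 1 (0.0551), and the Pdha2 call without WT replicate 1 (0.0855) or either Dhx37-/- library (0.113 and 0.129). With no filter on low counts the calls of Ldha (0.0948), Pdha2 (0.234) and Ldhc (0.267) were all lost, and with library totals alone those of Pdha2 (0.0746) and Ldhc (0.12). Gapdhs at -0.76 (SE 0.24, adjusted p = 0.0085) and Hk1 at -0.65 (SE 0.21, adjusted p = 0.0083) were lower, the latter not past the threshold without WT replicate 2 (0.118). The summed level of the 7 round spermatid markers moved with them, from 1418, 1358, 670 and 637 CPM in early meiotic prophase-like nuclei to 281, 254, 184 and 173 CPM in spermatocyte-like nuclei. All 7 markers had UMIs in every early meiotic sum, and Pdgfc and Foxp2 were at 0 in 1 spermatocyte-like sum each. The part of these markers' cells in the lower Hk1 and Gapdhs was not tested.

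The step to round spermatid-like nuclei carried the largest changes, with 4 of 9 genes higher than in spermatocyte-like nuclei and none lower, beside 37.5% of genes higher and 29.9% lower and a median of 0.28. Hk1 was higher by 2.87 (SE 0.21, adjusted p = 4.8e-18) and Gapdhs by 2.46 (SE 0.24, adjusted p = 9.4e-14), and no alternative run changed either call. The stricter gate could not be run for this step, since it left 1, 1, 2 and 3 spermatocyte-like nuclei. Pgk2 was higher by 0.98 (SE 0.24, adjusted p = 0.00023), but with library totals alone the value was 0.25 (adjusted p = 0.35). Ldhc sat at the threshold with 0.42 (SE 0.19, adjusted p = 0.0497) under TMM scaling, at 0.08 with DESeq2-type size factors and at -0.38 with library totals alone, so that its direction in this step depended on the scaling. Its call was also lost without WT replicate 1, WT replicate 2 or Dhx37-/- replicate 2 (log2 differences of 0.27, 0.23 and 0.29) and with the study's filter on nuclei alone (0.37). Ldha was at -0.14 (adjusted p = 0.57) and became a lower call with those size factors, at -0.47 (adjusted p = 0.030), with DESeq2 itself, at -0.47 (0.0094), and with library totals alone, at -0.91 (6.8e-05). The median over all genes moved from 0.28 to -0.03 and -0.44 under those 2 scalings, and the share of higher calls from 55.6 to 48.6 and 40.0%. The Ldhc value was 0.14 above the median of all genes, and those of Hk1 and Gapdhs were 2.59 and 2.18 above it.

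In elongating compared with round spermatid-like nuclei, 3 genes were higher and 1 lower, beside 31.7% of genes higher and 30.5% lower and a median of 0.07. Gapdh was higher by 1.01 (SE 0.25, adjusted p = 0.00043), Pdha2 by 0.80 (SE 0.20, adjusted p = 0.00052) and Gapdhs by 0.63 (SE 0.20, adjusted p = 0.0058). Hk1 was lower, with a difference of -1.06 (SE 0.18, adjusted p = 1.1e-06). The Gapdh call was lost under a stricter gate (0.71, adjusted p = 0.16) and the Gapdhs call without Dhx37-/- replicate 1 (0.54, adjusted p = 0.11). Ldhc (0.28, adjusted p = 0.21), Ldha (0.11, adjusted p = 0.62) and Pgk2 (-0.03, adjusted p = 0.95) did not pass the threshold.

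**Figure D4:**
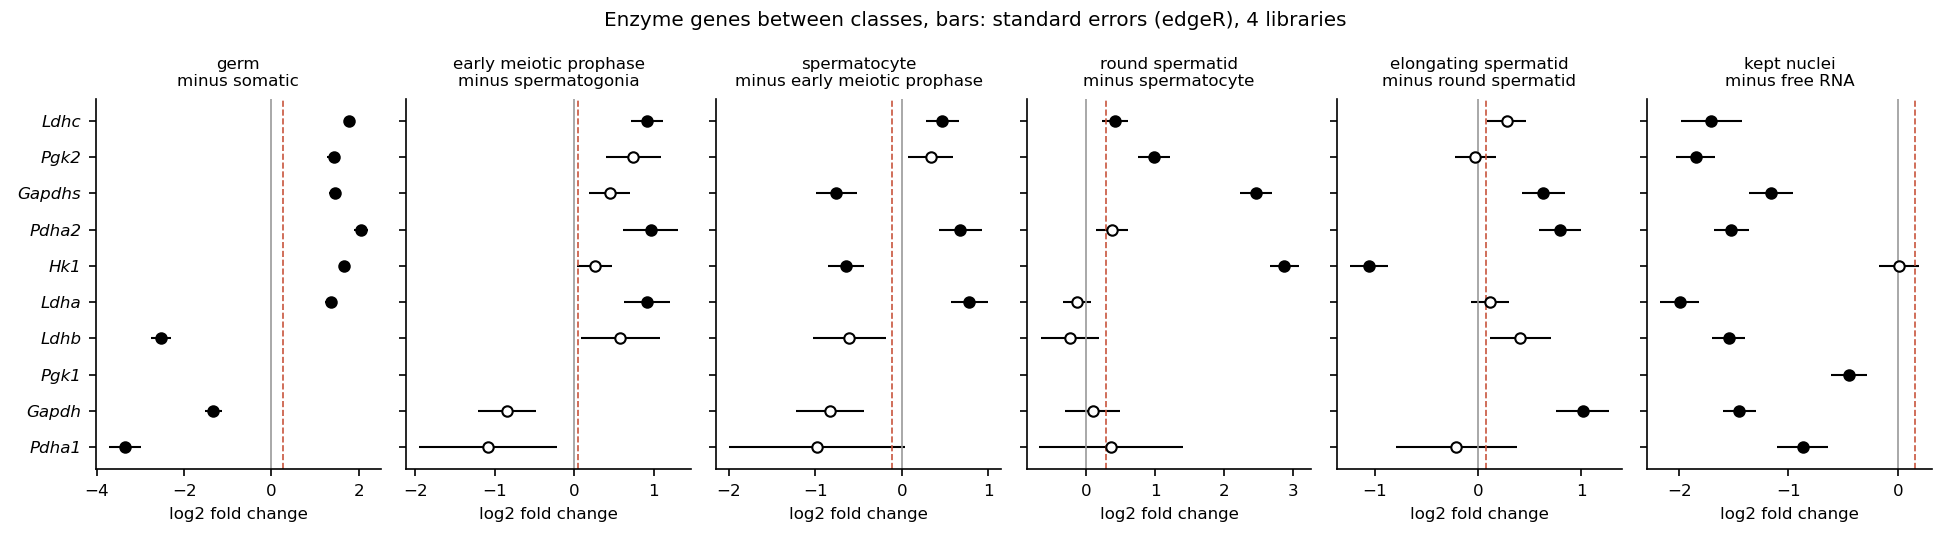
Log2 difference of each tested gene (bars, SE) for germ against somatic classes, at each step between classes and for kept nuclei against free RNA, with filled points past the adjusted threshold and a dashed line at the median of all genes. Hk1 and Gapdhs stand out at the step to round spermatid-like nuclei (2.87 and 2.46), and Ldhb, Pdha1 and Gapdh are the genes below 0 in germ against somatic classes.

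Other genes of the pathway were counted in the same fit. Of 22 glycolysis genes tested besides the 10, 12 were higher and 8 lower in germ against somatic classes, where 45.3% of all genes were higher and 36.6% lower. Hk2, a hexokinase of insulin-responsive tissues, was lower by 3.47 on the log2 scale in germ classes, from 388 to 845 CPM in Sertoli-like nuclei to 3.99 to 7.16 CPM in round spermatid-like nuclei. Pgam1 (-1.52) and Pfkfb4 (-1.35), a phosphoglycerate mutase and a regulator of phosphofructokinase, were lower too. Eno4 (1.75), a sperm enolase, Pfkp (1.73), a phosphofructokinase, and Pgam2 (1.38), the other mutase, were higher.

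At the step to round spermatids 9 of these 22 genes were higher and 4 lower, beside 37.5 and 29.9% of all genes, with Gpi1 (2.83) and Pkm (2.79), the glucose-6-phosphate isomerase and the pyruvate kinase, the first 2 by p among the higher ones. Elongating spermatid-like nuclei had Pfkfb4 at 257 to 298 CPM against 6.83 to 9.76 CPM in round ones, a log2 difference of 5.24, and were also higher in Hk2 (2.88), a hexokinase. Hk1 was lower at that step.

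Of the 7 transporters of glucose and lactate tested, 5 were higher and 2 lower in germ classes, beside 45.3 and 36.6% of all genes. Slc16a7, the monocarboxylate carrier MCT2, was at 693 to 991 CPM in round spermatid-like and at 41.8 to 97.4 CPM in Sertoli-like nuclei, and its log2 difference was 3.65 at the round spermatid step. Slc2a3, the glucose carrier GLUT3, was highest in spermatocyte-like nuclei at 514 to 1136 CPM and lower by 2.16 on the log2 scale at the next step. Slc2a1, the GLUT1 carrier of somatic cells, was lower in germ classes (-2.03). Slc16a1 (2.40), the MCT1 carrier, was higher in elongating than in round spermatid-like nuclei.

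Of 10 genes of pyruvate entry tested, 3 were higher and 4 lower in germ classes, beside the same 45.3 and 36.6%. Pdk1, a kinase that turns pyruvate dehydrogenase off, was lower (-4.47), with 123 to 151 CPM in Sertoli-like and 0.325 to 1.78 CPM in round spermatid-like nuclei. The subunits of the mitochondrial pyruvate carrier split, with Mpc2 (1.68) higher and Mpc1 (-1.58) lower. Pdhb (1.05), which encodes the E1 beta partner of the Pdha proteins, was higher.

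Of 12 other X-linked parents and autosomal copies tested, 5 were higher and 5 lower in germ classes, again beside 45.3 and 36.6% of all genes. The copies Rbmxl2 (1.74), Rpl39l (1.65) and Cetn1 (1.61) were higher, and the X-linked parents G6pdx (-5.75), Utp14a (-3.91) and Rbmx (-3.20) were lower, as Pdha1 was. G6pdx had 0 UMIs in all 4 spermatocyte-like sums and 16.7 to 28.1 CPM in Sertoli-like nuclei. At the step to round spermatids 5 of the 12 were higher and 1 lower, beside 37.5 and 29.9% of all genes. The X-linked parents Cstf2 (3.78) and Rbmx (2.64) and the copy Rbmxl2 (1.87) were higher, and the copy Utp14b (-1.32) was lower.

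The genes most like each germ form were found by Pearson's r of log2 CPM over 48 sums (each class but the T cell-like one, and free RNA, in 4 libraries) among 14521 genes. Meig1, a gene needed in spermiogenesis, led for Ldhc (0.96) and ranged from 229 to 477 CPM in Sertoli-like nuclei to 2175 to 4704 CPM in free RNA. Fam229b led for Pgk2 (0.89), Fam71e1 for Gapdhs (0.94) and Spata33 for Pdha2 (0.92). The sums share libraries and free RNA, so that these values are descriptions.

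Between genotypes, 5 classes and free RNA were fitted. There edgeR called none of the 10 genes, and DESeq2 called 2 of them, both in free RNA, where it called 350 of 22332 genes. In Sertoli-like nuclei 8 were tested and 0.0% of 10266 genes were called, in spermatogonia-like nuclei 3 were tested with 0.0396% of genes called, and in spermatocyte-like nuclei 6 with 0.0115%. In round spermatid-like nuclei 9 were tested with 0.0113% of genes called, in elongating ones 9 with 0.0%, and in free RNA 10 with 0.0%. At an unadjusted edgeR p under 0.05, 2, 1, 2, 1, 3 and 2 of the genes tested would pass in these 6 fits. Of all genes, 863 of 10266, 773 of 5054, 1561 of 8660, 1075 of 17679, 1593 of 17047 and 4114 of 22332 would pass.

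Ldhb had the largest difference between genotypes in these 6 fits, and it lay outside Sertoli-like nuclei. Elongating spermatid-like nuclei had 3.72 and 2.94 CPM in WT and 12.2 and 11.9 CPM in Dhx37-/-, and both Dhx37-/- libraries were above both WT libraries. The log2 difference was 1.82 (SE 0.36, adjusted p = 0.50 by edgeR). Free RNA had 23.0 and 20.5 CPM in WT and 61.9 and 54.3 CPM in Dhx37-/-, a difference of 1.54 (SE 0.34, adjusted p = 0.15), which DESeq2 called (adjusted p = 0.018). In round spermatid-like nuclei the difference was 1.34 (SE 0.39, adjusted p = 0.82). In Sertoli-like nuclei, the class with the highest Ldhb level, it was 0.04 (SE 0.28, adjusted p = 0.99), with 193 and 159 CPM in WT and 200 and 194 CPM in Dhx37-/-. Early meiotic prophase-like nuclei, where genotypes were not fitted, had 4.87 and 3.68 CPM of Ldhb in WT, from 2 and 1 UMIs, and 41.2 and 24.2 CPM in Dhx37-/-.

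Gapdh moved with Ldhb in free RNA, from 14.0 and 15.2 CPM in WT to 44.2 and 37.3 CPM in Dhx37-/-, a difference of 1.61 (SE 0.34, adjusted p = 0.15 by edgeR and 0.017 by DESeq2). The 9 Leydig markers summed to 542 and 432 CPM in WT free RNA and to 1051 and 979 CPM in Dhx37-/- free RNA, with none at 0. In elongating spermatid-like sums they were at 80.4 and 47.2 CPM against 140 and 138 CPM, and in round ones at 73.9 and 50.1 CPM against 133 and 124 CPM. Leydig-like nuclei held both genes, with 9.75, 30.9, 55.5 and 52.4 CPM of Gapdh. The 9 Sertoli markers summed to 459 and 186 CPM in WT and 339 and 457 CPM in Dhx37-/- free RNA and did not separate the genotypes. The part of Leydig RNA in the Ldhb and Gapdh differences was not tested, and in sums of whole-testis material fewer cells of a type and less RNA per cell cannot be told apart.

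A fit without 1 library sets a single library against a pair, takes the spread from that pair and assumes that the lone library varies alike. In such fits, without WT replicate 1 or without WT replicate 2, the Ldhb difference was 1.99 and 1.67 in elongating spermatid-like nuclei. In free RNA it was 1.60 and 1.51, and the Gapdh difference there was 1.52 and 1.72. With no filter on low counts, edgeR called Ldhb in elongating spermatid-like nuclei (adjusted p = 0.0215) and in free RNA (0.0150), and Gapdh in free RNA (0.0103). That setting called 76 of 35034 genes in elongating spermatid-like nuclei and 1033 of 38385 in free RNA. A block with crossed replicate numbers, chosen after seeing the data, gave differences of 1.83 and 1.53 for Ldhb in these sums and 1.59 for Gapdh in free RNA. No label pairs the libraries in this way, and a pairing picked from the data gives no separate support to its calls. That block called 80 of 17047 genes in elongating spermatid-like nuclei and 2601 of 22332 in free RNA. Ldhb in round spermatid-like nuclei was at 1.51 without WT replicate 1, and Gapdh in elongating ones was at 1.15 without WT replicate 2. The number of genes called over the whole table also rose in each of the 6 fits without a WT library, so that only the differences of such fits are given.

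Both Dhx37-/- libraries lay below both WT libraries for Hk1 in 3 of the 5 fitted classes, without passing the threshold. In those classes, spermatogonia-like, spermatocyte-like and Sertoli-like nuclei, 11.4, 17.7 and 8.99% of all genes did so. Spermatogonia-like nuclei had 286 and 263 CPM in WT and 164 and 128 CPM in Dhx37-/- (-1.06, SE 0.38, adjusted p = 0.22 by edgeR). Spermatocyte-like nuclei had 217 and 122 against 87.4 and 81.3 CPM (-1.03, SE 0.32, adjusted p = 0.15), and Sertoli-like nuclei 95.6 and 75.3 against 55.4 and 40.8 CPM (-1.02, SE 0.32, adjusted p = 0.44). For the classes not fitted, the share of all genes that separated in this way was not computed, so that only levels and ratios are given. Of these classes, early meiotic prophase-like nuclei had 307 and 306 against 159 and 117 CPM, the lowest ratio of Dhx37-/- to WT (0.45). The ratios were 0.706, 0.759 and 0.847 in macrophage-like, fibroblast-like and peritubular myoid-like nuclei. In Leydig-like and endothelial-like nuclei they were 0.845 and 0.847. T cell-like sums went the other way, with 0 and 85.7 CPM in WT, from 0 and 1 UMIs, and 138 and 105 CPM in Dhx37-/-. The 7 round spermatid markers, the class in which Hk1 was highest, summed to 1618 and 1359 CPM in WT and 1087 and 897 CPM in Dhx37-/- spermatogonia-like nuclei, to 281 and 254 against 184 and 173 CPM in spermatocyte-like nuclei, and to 427 and 469 against 238 and 337 CPM in Sertoli-like nuclei. In early meiotic prophase-like nuclei they were at 1418 and 1358 against 670 and 637 CPM. Their part was not tested. In round spermatid-like nuclei themselves Hk1 had 625 and 444 against 469 and 509 CPM, which overlapped (-0.19, SE 0.25, adjusted p = 0.93). With WT replicate 1 as the lone WT library, the Hk1 difference was -1.14 in Sertoli-like, -1.35 in spermatocyte-like and -0.70 in elongating spermatid-like nuclei. Over all fits without 1 library these values ran up to -0.64, -0.47 and -0.026.

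No germ form passed the threshold by edgeR either. Ldhc in Sertoli-like nuclei was at 279 and 368 CPM in WT and 626 and 420 CPM in Dhx37-/-, a difference of 0.65 (SE 0.30, adjusted p = 0.59 by edgeR), and it was 0.23 (SE 0.26, adjusted p = 0.90) in round and 0.29 (SE 0.22, adjusted p = 0.69) in elongating spermatid-like nuclei. Gapdhs in elongating spermatid-like nuclei was at 354 and 324 CPM in WT and 483 and 510 CPM in Dhx37-/- (0.53, SE 0.19, adjusted p = 0.50). With WT replicate 2 or WT replicate 1 as the lone WT library, that difference was 0.58 and 0.46. Over the fits without 1 library, the Ldhc difference ran from 0.081 to 0.50 in spermatocyte-like and from 0.038 to 0.50 in round spermatid-like nuclei. It ran from 0.052 to 0.54 in elongating spermatid-like nuclei and from 0.13 to 1.24 in free RNA, each highest without WT replicate 2. Gapdhs in spermatocyte-like nuclei was at 1.60 without WT replicate 1 and turned to -0.30 without WT replicate 2. Pdha2 in spermatocyte-like nuclei was at 63.5 and 58.7 CPM in WT and 101 and 103 CPM in Dhx37-/- (0.74, SE 0.32, adjusted p = 0.25). The ratio of Dhx37-/- to WT for Pdha2 was 1.94 in Sertoli-like nuclei, from 1 to 32 UMIs a library. It was 1.86 in early meiotic prophase-like nuclei, which were not fitted, and 0.561 in spermatogonia-like nuclei, from 3 to 13 UMIs.

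Counting the genes whose 2 Dhx37-/- libraries both lay above both WT libraries gave 6 of 10 in Sertoli-like nuclei, where 25% of all genes did so, and 1 of 10 in spermatogonia-like nuclei (22.8% of all genes). It gave 4 in spermatocyte-like (18.2%), 8 in round (16.5%) and 6 in elongating spermatid-like nuclei (16.7%) and 6 in free RNA (17.1%). Both lay below in 1, 3, 1, 0, 0 and 0 of the 10 genes in that order, beside 8.99, 11.4, 17.7, 14.1, 16.9 and 26.0% of all genes. The 10 genes share libraries and free RNA, so that these counts are descriptions.

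**Figure D5:**
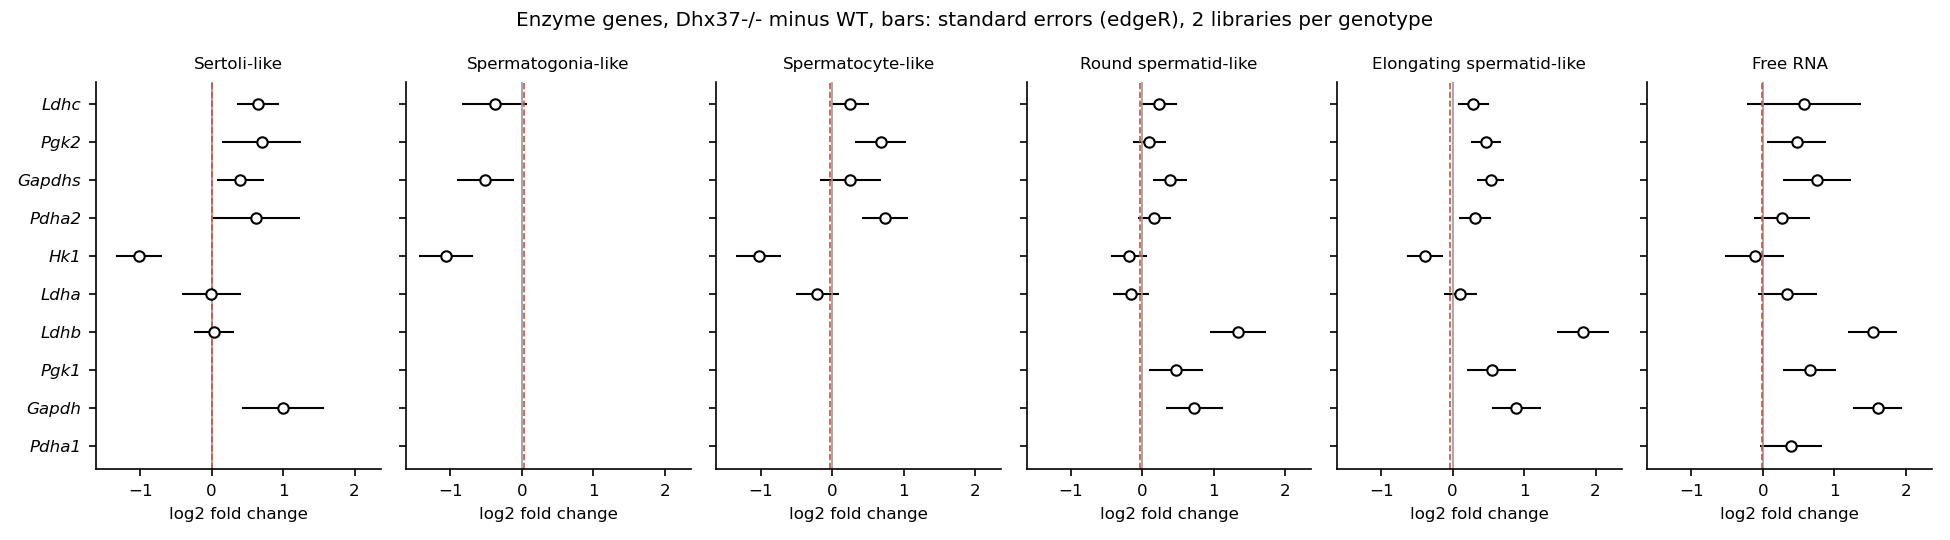
Log2 difference between Dhx37-/- and WT (bars, SE) for each tested gene in 5 classes and in free RNA, with open points for values that miss the adjusted threshold and a dashed line at the median of all genes. Ldhb is at 1.82 in elongating spermatid-like nuclei and near 0 in Sertoli-like nuclei (0.04), and no value passes the threshold.

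For the germ form shares, the exact two-sided permutation test of 2 libraries against 2 cannot go below p = 0.33. Of 36 comparisons between genotypes, 10 reached that p, meaning that the groups did not overlap. With labels placed at random, a comparison reaches that p at a rate of 0.33, so that this count is a description only. The Gapdhs share in free RNA was 96.7 and 96.7% in WT and 94.0 and 94.4% in Dhx37-/-, beside the Gapdh levels above. Whether the steps between classes differed by genotype was tested by an interaction term. None of the 9 genes tested passed, beside 0.037% of genes at the step from spermatogonia-like to early meiotic, 0.395% at the step to spermatocyte-like, 0.346% at the step to round spermatid-like and 0.0% at the step to elongating spermatid-like nuclei, and 0.0% for germ against somatic classes. The smallest adjusted p among them was 0.40, for Pdha2 at the step to round spermatid-like nuclei (-0.96, SE 0.41).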

How the data were processed

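Single-nucleus libraries (10x 3′, 2 WT and 2 Dhx37-/-) were processed by the authors with Cell Ranger (7.2.0 in the file headers), and they deposited raw UMI counts per gene for every barcode. The submitters' processing notes name GRCm38 and mm10, the study's methods mm39, and whether introns were counted is not given in the sources used here. Nuclei were called again from the counts. A barcode was called above a UMI cut (percentile 99 of the 8000 highest barcodes divided by 10), or below it where its profile differed from free RNA (10000 simulations, adjusted p under 0.01). Called barcodes were kept with 500 or more UMIs, 500 to 5000 genes and at most 25% mitochondrial UMIs, and were classed by marker gates. UMIs were summed per library and class and tested with edgeR 4.0.16 (quasi-likelihood, TMM, filterByExpr, two-sided, Benjamini-Hochberg over all genes tested), with DESeq2 1.42.0, other scalings, filters, gates, doublet removal (Scrublet, 4.16 to 4.56% of nuclei), left-out libraries and a replicate block as alternatives. The scripts were tested on simulated data. The genes and lists were chosen with earlier results of these data known. By rule the text names the 10 genes, Dhx37 and, per list and contrast, up to 3 called genes of smallest p in each direction. One gene of the lists is not reported here by name. The study's own cell labels were not used here. With 2 libraries per genotype, p-values measure the spread between these samples.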

Additional observations from a re-analysis of the deposited data

How the results depend on the processing

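Counts of genes called between genotypes were unstable. In Sertoli-like nuclei they were 0, and 37 with no filter on low counts, 1 with the study's filter alone, 1 without doublets and 3 with the replicate block. In spermatogonia-like nuclei they were 2, and 22 with DESeq2, 37 with no filter, and 0 with the study's filter alone, without doublets, with the block or with library totals alone. In spermatocyte-like nuclei they were 1, and 35 with DESeq2, 359 with no filter, 0 with the study's filter alone, 50 without doublets, 78 with the block and 0 with library totals alone. In round spermatid-like nuclei they were 2, and 14 with DESeq2, 35 with no filter, 1 with the stricter gate and 0 with the block. In elongating spermatid-like nuclei they were 0, and 11 with DESeq2 and 76 with no filter. In free RNA they were 0, and 350 with DESeq2, 1033 with no filter and 32 with the block. The departure of replicate 1 from the mean of its genotype was correlated over genes between WT and Dhx37-/-. The values ran from -0.06 to -0.29, so that same-numbered libraries did not depart alike. Crossing the numbers, chosen after seeing the data, gave 150, 15, 80 and 2601 calls in spermatocyte-like, round and elongating spermatid-like nuclei and free RNA. Elongating against round gave 10075 calls, and 16235 with no filter. Nuclei against free RNA gave 18463, and 7706 with the deeper barcode ranks.

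Leaving out 1 library gave 0 to 511 calls between genotypes in Sertoli-like, 12 to 246 in spermatogonia-like, 3 to 1107 in spermatocyte-like, 3 to 806 in round and 0 to 2571 in elongating spermatid-like nuclei and 1 to 7517 in free RNA, and 1157 to 3770 calls for early meiotic prophase against spermatogonia. The log2 difference between genotypes then crossed 0 for Ldhb in Sertoli-like (-0.10 to 0.34), Ldhc in spermatogonia-like (-0.83 to 0.36) and Gapdhs in spermatocyte-like nuclei (-0.30 to 1.60), all through WT replicate 2, and for Hk1 in round spermatid-like nuclei (-0.43 to 0.14) and free RNA (-0.26 to 0.075), through WT replicate 1. At the round spermatid step Ldha ranged from -0.35 to 0.31, the latter without Dhx37-/- replicate 1, and was 0.17 without doublets, and Ldhc was -0.38 with library totals alone. Pgk1 in nuclei against free RNA was 0.016 with the deeper ranks.

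The Ldh share moved to 79.8% in Leydig-like nuclei without doublets, and with the stricter gate the Gapdhs and Pdha2 shares of round spermatid-like nuclei moved to 97.6 and 99.5%. Subtracting free RNA gave 31.5, 46.9, 57.0 and 17.3% in Sertoli-like and 25, 16.4, 34.2 and 7.14% in Leydig-like nuclei (means of Ldhc, Pgk2, Gapdhs and Pdha2). Single libraries ran from 0 to 100% for Pgk2 and 0 to 46.3% for Pdha2 in Sertoli-like nuclei, and leaving out 1 library gave 29.2 to 62.5% and 7.58 to 23.0%. In Leydig-like nuclei it gave 8.71 to 21.8% and 3.44 to 9.52%. The subtraction gave 66.5% for Gapdhs in spermatogonia-like, 72.6, 82.5 and 73.0% for Pgk2, Gapdhs and Pdha2 in early meiotic prophase-like and 63.6% for Pgk2 in spermatocyte-like nuclei. For Gapdhs in spermatocyte-like nuclei the mean of the 3 libraries with a share was 25.9%. The stricter gate left under 10 nuclei in at least 1 library of the spermatogonia-like, early meiotic prophase-like and spermatocyte-like classes, so that no value of theirs was computed under it. The cause of these changes was not tested. Shares with fewer than 20 UMIs, such as Pdha and Pgk in WT Sertoli-like nuclei, are limited by depth.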
